A study of Mus musculus with 4 samples.

Results

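Solute carriers are membrane proteins that move sugars, amino acids, vitamins, ions, metals and metabolites across the plasma membrane and the membranes of organelles, and their genes carry symbols beginning with Slc and a family number. They were followed here in liver of mice that express a viral oncogene and in liver of wild-type mice. The members were all probe sets whose only gene symbol in the platform annotation begins with Slc, apart from the organic anion transporters named Slco and from Slc37a4, Slc25a1, Slc27a5 and Slc10a1. There were 178 such probe sets, for 147 genes, among 12488 probe sets on the array. A probe set is a group of short oligonucleotides on the array that together read 1 transcript.

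Affymetrix U74Av2 arrays were hybridized with total liver RNA from male B6SJL hybrids, with 2 arrays of non-transgenic wild-type animals and 2 of PEPCK-TAg transgenic animals. Animals of both groups were 58 to 60 days old and had free access from weaning, for 4 weeks, to a diet with 10% protein and 70% carbohydrate. In PEPCK-TAg mice the promoter of the phosphoenolpyruvate carboxykinase gene, which is active in hepatocytes and also in kidney, drives large T and small t antigen of SV40. The series asks what long exposure to small amounts of these proteins does to gene expression in liver. The design text speaks of duplicate measurements and leaves out whether each array stands for its own animal, so each p-value measures the spread between arrays, which may be technical.

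Hepatocytes take up and release most of the solutes that pass between blood and liver. Amino acid carriers of their plasma membrane feed gluconeogenesis and urea synthesis, and sugar carriers move glucose in and out. Most members of the Slc25 family lie in the inner mitochondrial membrane and exchange nucleotides, ornithine, carnitine esters and organic acids with the cytosol. Organic ion carriers bring drugs and endogenous metabolites into the cell, and carriers of iron, zinc and copper serve storage and export.

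The arrays had the same trimmed mean signal, and across the tested Slc probe sets log2 signals correlated with r = 0.961 between the wild-type arrays, 0.968 between the PEPCK-TAg arrays and 0.893 to 0.938 between groups, where probe sets share arrays and are not independent. Of 8 hepatocyte markers on the array 0 passed the limma test described below, with a median log2 difference of -0.30. Their summed signal was 70977 and 61687 in wild type against 55540 and 49641 in PEPCK-TAg. Of 12 macrophage markers 5 rose, with a median of 1.23 and sums of 3652 and 6838 in wild type against 12425 and 16510 in PEPCK-TAg. Of 9 endothelial markers 0 passed, with a median of -0.24. Of 4 tested stellate cell markers Col3a1 rose, with 124.1 and 137.1 in wild type against 276.9 and 511.5 in PEPCK-TAg, and the list's median was 0.07. Acta2 and Des, below the filter on low signals, were also higher on both PEPCK-TAg arrays. Of 5 tested red blood cell markers Car2 rose, with a log2 change of 2.27 ± 0.32, and the list's median was 0.18. Epor gave 0.74 ± 0.40 with groups apart upwards and Klf1 0.18 ± 0.22, neither past the threshold. Alas2 differed downwards by -2.01 ± 0.62 without passing, with 250.2 and 1072.7 against 91 and 157.4, and Hba-a1 gave -0.52 ± 0.28. Marker sums of kidney, which also uses the promoter, lay between 49.6 and 69.4 on the 4 arrays for 3 genes, all below the filter. Among them are the members Slc12a1, with overlapping groups, and Slc34a1, with 23.9 and 22 in wild type against 30.5 and 38.9 in PEPCK-TAg. In whole-liver RNA fewer cells of a type and less RNA per cell cannot be told apart, and the part of these marker differences in the results below was not tested.

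Signals were compared as log2(signal + 13) with limma, a linear model with moderated variances fitted over 7453 probe sets, and Benjamini-Hochberg adjusted p-values under 0.05 counted as past the threshold. Of the 178 Slc probe sets, 111 probe sets of 99 genes passed the filter on low signals, which kept probe sets with a mean near a signal of 48.1 or more. The other 67 had signals from 0.7 to 105.4, with a median of 13.0. In 11 of these both PEPCK-TAg arrays were the higher and in 20 the lower, where the shares over all 4969 probe sets below the filter were 21.0% and 19.3%. Slc20a1 and Slc25a4 rose, and Slc46a1, Slc29a1, Slc22a30, Slc6a12, Slc27a2 and Slc66a2 fell. The 2 rises were 1.80% of the tested Slc probe sets, against a background of 6.40% of all tested probe sets called higher. The 6 falls were 5.41%, against 3.07% called lower. In all, 7.21% of Slc probe sets and 9.47% of all tested probe sets were called, so the share of called members was near the background.

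The promoters of the 3 genes with the largest changes are shown because the genes lie at both ends of the range, Slc20a1 and Slc25a4 at the top and Slc46a1 at the bottom. Each sequence runs 5′ to 3′ over 300 bases, from 250 before to 50 after a start listed by RefSeq on GRCm38.p6. For Slc20a1 the first of 2 listed starts is given (chr2:129198523-129198822, plus strand), and Slc25a4 (chr8:46211013-46211312, minus strand) and Slc46a1 (chr11:78465451-78465750, plus strand) have 1 each.
Slc20a1: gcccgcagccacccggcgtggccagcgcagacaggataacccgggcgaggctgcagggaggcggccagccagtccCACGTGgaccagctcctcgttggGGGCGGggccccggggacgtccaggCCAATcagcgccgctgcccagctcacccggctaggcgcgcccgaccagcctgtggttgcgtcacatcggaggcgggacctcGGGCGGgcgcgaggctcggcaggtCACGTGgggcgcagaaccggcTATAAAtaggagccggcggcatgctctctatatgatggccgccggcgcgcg
Slc25a4: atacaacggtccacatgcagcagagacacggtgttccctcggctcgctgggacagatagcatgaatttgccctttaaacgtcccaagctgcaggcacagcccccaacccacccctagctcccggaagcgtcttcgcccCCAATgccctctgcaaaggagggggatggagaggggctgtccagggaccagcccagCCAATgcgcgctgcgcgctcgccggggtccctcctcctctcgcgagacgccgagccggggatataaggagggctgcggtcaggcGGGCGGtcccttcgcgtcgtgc
Slc46a1: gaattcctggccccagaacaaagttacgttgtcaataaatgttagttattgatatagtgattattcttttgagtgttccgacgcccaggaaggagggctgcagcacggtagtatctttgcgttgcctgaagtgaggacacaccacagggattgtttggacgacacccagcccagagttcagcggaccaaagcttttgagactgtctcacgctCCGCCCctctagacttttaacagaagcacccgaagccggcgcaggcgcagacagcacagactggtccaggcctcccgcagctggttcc
Capitals mark matches on either strand to 4 sets of letters, GGGCGG for the GC box, CCAAT for the CCAAT box, TATAAA for the TATA box and CACGTG for the E-box. The Slc20a1 window held 2 GC boxes, 1 CCAAT box, 1 TATA box and 2 E-boxes. In the Slc25a4 window 1 GC box and 2 CCAAT boxes were found, and in that of Slc46a1 1 GC box. Over the first listed start of each of 27025 genes in the RefSeq table, 35.9% held a GC box, 37.9% a CCAAT box, 14.2% a TATA box and 7.24% an E-box. Windows were listed for 121 of the 147 Slc genes, and over the first listed start of each the shares were 66.9%, 33.1%, 6.61% and 10.7% in the same order. A match of letters is a description and not evidence of binding.

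**Figure D1:**
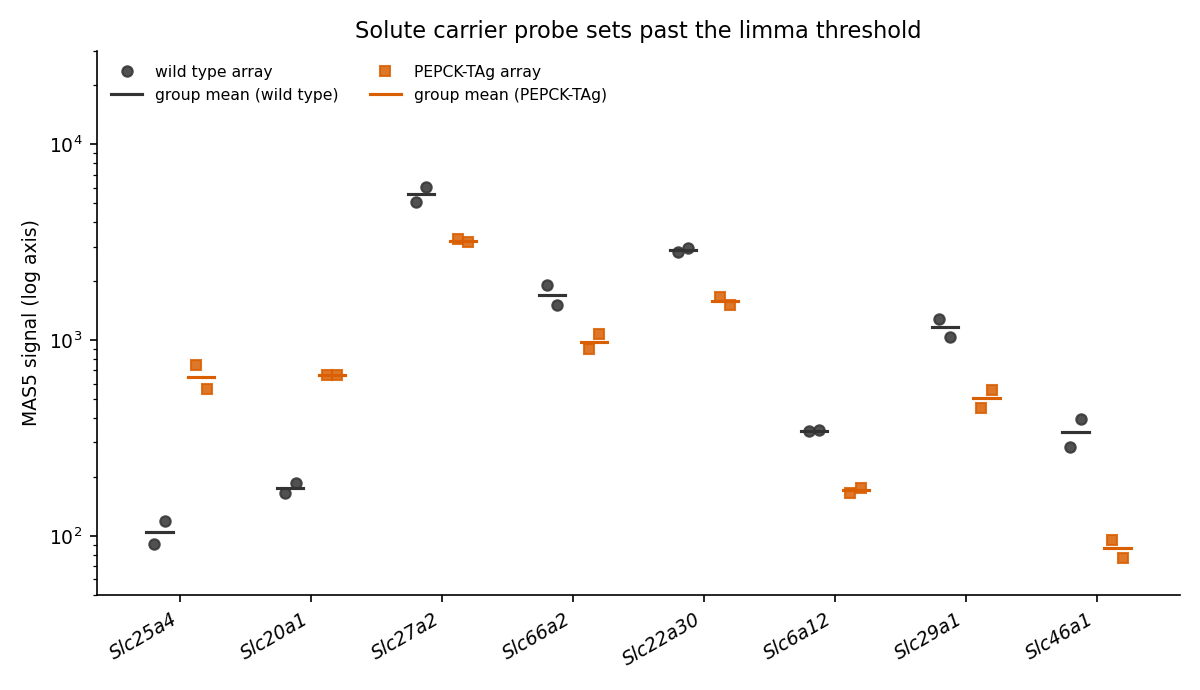
MAS5 signal (log axis) of the 8 Slc probe sets past the limma threshold, with 1 point per array and a line at each group mean. For Slc25a4 and Slc20a1 the PEPCK-TAg points are the upper pair, and for the other 6 the lower pair.

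Slc25a4 encodes the ADP/ATP carrier that is typical of heart and muscle. Its signals were 90.4 and 119.5 in wild type against 741.7 and 560.3 in PEPCK-TAg. The groups lay far apart, and the rise was 2.49 ± 0.22 (log2 change ± SE, n = 2 against 2; limma, Benjamini-Hochberg adjusted p = 0.00186). Slc20a1 encodes a sodium-dependent phosphate carrier of the plasma membrane that is present in most cell types. It measured 165.1 and 186.2 in wild type against 667.0 and 663.5 in PEPCK-TAg. Duplicates agreed closely, and the rise was 1.85 ± 0.16 (limma, Benjamini-Hochberg adjusted p = 0.00188). Both calls were made under each of the 13 alternatives run, which include leaving out each array. Here and below, a fit without an array leaves its group with 1, which is assumed to vary like the other group.

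Slc46a1 encodes the proton-coupled folate transporter, which also carries heme with lower affinity. It measured 284.5 and 396.6 in wild type against 95.4 and 77.5 in PEPCK-TAg. It had the lowest log2 change of all tested Slc probe sets, -1.82 ± 0.22 (limma, Benjamini-Hochberg adjusted p = 0.00637), and it too was called under each alternative. Slc29a1 encodes an equilibrative nucleoside transporter of the plasma membrane that carries adenosine and other nucleosides. Its signals were 1284 and 1034 in wild type against 450.6 and 558.6 in PEPCK-TAg, with no overlap, a change of -1.18 ± 0.19 and a limma Benjamini-Hochberg adjusted p of 0.0151. The second tested probe set of Slc29a1, which is much dimmer, did not share the fall, with 111 and 75.2 in wild type against 74 and 111.2 in PEPCK-TAg and a change of -0.01 ± 0.29. Without wild type replicate 1 the brighter probe set changed by -1.02 and had an adjusted p of 0.0578.

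Slc22a30 belongs to the Slc22 family of organic anion and cation transporters. Its signals of 2820.5 and 2942 in wild type against 1650 and 1509 in PEPCK-TAg did not overlap, and the change was -0.86 ± 0.14 (limma, Benjamini-Hochberg adjusted p = 0.0155). Slc6a12, the betaine and GABA transporter gene, measured 341.9 and 346.0 in wild type against 165.8 and 176.3 in PEPCK-TAg. Its duplicates were close in both groups, with a change of -0.96 ± 0.16 (limma, Benjamini-Hochberg adjusted p = 0.0182). The call of Slc22a30 was lost when wild type replicate 1 was left out, at an adjusted p of 0.0501, and when PEPCK-TAg replicate 2 was, at 0.0624. That of Slc6a12 was lost on leaving out either wild-type array, at adjusted p of 0.0570 (replicate 1) and 0.0508 (replicate 2), and PEPCK-TAg replicate 1, at 0.0656.

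Slc27a2 encodes a very long-chain acyl-CoA synthetase that also takes part in fatty acid uptake. Its signals were 5052 and 6041 in wild type against 3276 and 3167 in PEPCK-TAg, and the change was -0.78 ± 0.14 (limma, Benjamini-Hochberg adjusted p = 0.0231). Slc66a2 encodes a membrane protein of the PQ-loop family. It measured 1904 and 1509.5 in wild type against 897.2 and 1069 in PEPCK-TAg, a change of -0.78 ± 0.18 (limma, Benjamini-Hochberg adjusted p = 0.0449). In both genes all PEPCK-TAg values lay below all wild-type values. Each of these calls was lost in 7 of the 13 alternatives. For Slc27a2 the adjusted p was 0.0706 on leaving out wild type replicate 2, 0.0685 and 0.0842 on leaving out PEPCK-TAg replicates 1 and 2, and 0.0644 to 0.0666 with no filter, quantile normalization, cyclic loess or no mean-variance trend. For Slc66a2 it was 0.155 on leaving out wild type replicate 1, 0.154 and 0.0565 on leaving out PEPCK-TAg replicates 1 and 2, and 0.0605 to 0.0851 under the same 4 settings.

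More members leaned down than up in these data. Of the 111 tested Slc probe sets 68 had a log2 change below 0 (61.3%, against 49.5% of all tested probe sets), and the median was -0.12, against 0.01 for all tested. In 45 of them (40.5%) both PEPCK-TAg arrays lay below both wild-type arrays, and in 20 (18%) above. Among all tested probe sets the shares were 26.3% below and 30.2% above, 56.5% together. With arrays centred on their medians, which moved the median of all tested probe sets to -0.14, the Slc median was -0.26 and the calls were 2 higher and 11 lower. Over all tested probe sets that setting gave 403 higher and 409 lower, in place of 477 and 229. These shares describe probe sets that share arrays and carry no test.

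**Figure D2:**
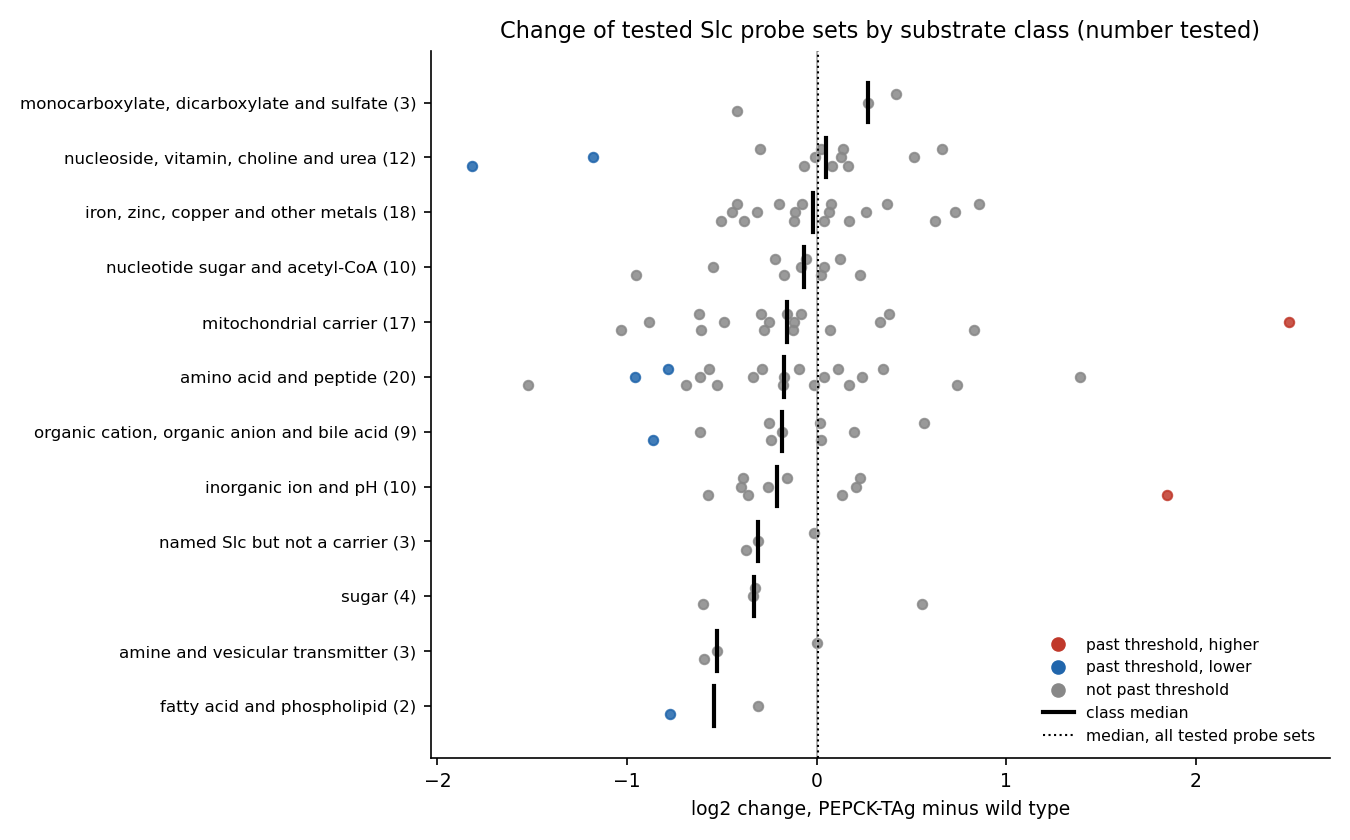
Log2 change (PEPCK-TAg minus wild type) of the 111 tested Slc probe sets by substrate class, with the number tested in brackets, black bars at class medians and a dotted line at the median of all tested probe sets (0.01). Coloured points passed the threshold, and the 2 rises stand alone in the mitochondrial and inorganic ion classes.

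Of the 22 probe sets of Slc25 mitochondrial carriers 17 were tested, for 15 genes. Slc25a4 rose (5.88%, against 6.40% of all tested probe sets), 0 fell (against 3.07%), and 16 did not pass, with a median of -0.16. Groups lay apart downwards in 8 (47.1%) and upwards in 3 (17.6%). Over all tested Slc probe sets these shares were 40.5% and 18%, and over all tested probe sets 26.3% and 30.2%. The other ADP/ATP carrier gene on the array, Slc25a5, which is the widely expressed form, measured 542.5 and 604.4 in wild type against 447.0 and 483.3 in PEPCK-TAg with its brighter tested probe set. That difference of -0.29 ± 0.16 ran opposite to the change of Slc25a4 and did not pass (limma, Benjamini-Hochberg adjusted p = 0.304). The dimmer tested probe set of Slc25a5 changed by -0.16 ± 0.26, and a further one, below the filter, had signals of 2.7 to 17.0.

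Slc25a15, the ornithine carrier gene of the urea cycle, measured 6296 and 5119 in wild type against 4300 and 3152 in PEPCK-TAg. The groups did not overlap, and the difference of -0.62 ± 0.19 did not pass (limma, Benjamini-Hochberg adjusted p = 0.0987). Slc25a47, a carrier gene expressed mostly in liver, measured 2598 and 3794 against 2262 and 1864, a difference of -0.61 ± 0.21. Slc25a39, whose product is needed for mitochondrial glutathione import, measured 3238 and 2583 against 2213 and 1919, a difference of -0.49 ± 0.17. These were 3 downward differences with groups apart and limma Benjamini-Hochberg adjusted p from 0.0987 to 0.133. Slc25a44, a carrier of branched-chain amino acids, stood just outside the threshold with 337.0 and 245.8 against 135.3 and 165.9 (-0.89 ± 0.22; limma, Benjamini-Hochberg adjusted p = 0.0533). It was called under 6 alternatives, among them without wild type replicate 2 (-1.10, adjusted p 0.0453).

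Slc25a25 encodes a calcium-regulated carrier of ATP-magnesium and phosphate. It had the largest downward difference of the 17 tested Slc25 probe sets, -1.03 ± 0.44, with signals of 2599 and 1199 in wild type against 1222 and 600.9 in PEPCK-TAg. The groups overlapped, because replicate 1 was more than replicate 2 in each group, and the limma Benjamini-Hochberg adjusted p was 0.192. It was called without PEPCK-TAg replicate 1 (-1.54, adjusted p 0.0451). Slc25a51, the mitochondrial NAD+ carrier gene, measured 224.8 and 275.3 in wild type against 611.3 and 334.2 in PEPCK-TAg with its brighter probe set. This upward difference of 0.83 ± 0.29 did not pass (limma, Benjamini-Hochberg adjusted p = 0.133), and passed without PEPCK-TAg replicate 2 (1.25, adjusted p 0.0178). Its other probe set gave 0.38 ± 0.30 with overlapping groups.

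Several metabolite carriers differed little. Slc25a10, the dicarboxylate carrier gene, measured 514.1 and 543.1 in wild type against 486.3 and 484.2 in PEPCK-TAg, and the 95% interval of its log2 difference was -0.49 to 0.25. Slc25a11, the oxoglutarate carrier gene, gave a difference of -0.12 ± 0.15 with an interval of -0.49 to 0.24. For Slc25a20, the carnitine and acylcarnitine carrier gene of fatty acid oxidation, the wild-type arrays themselves differed, with 895.8 and 1646 against 884.1 and 1176 in PEPCK-TAg. Its interval of -0.97 to 0.47 is wide and covers falls and rises. Slc25a28, which encodes an iron carrier, gave -0.28 ± 0.18, and Slc25a17, Slc25a36 and Slc25a45 lay between -0.08 and 0.34. Of these, Slc25a17 is counted by its family number, and its product is a carrier of the peroxisome membrane. Leaving out wild type replicate 1 moved the subgroup median to -0.32, and leaving out its duplicate moved it to -0.11. With PEPCK-TAg replicate 1 or 2 left out it was -0.12 or -0.23, so its size depended on single arrays.

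**Figure D3:**
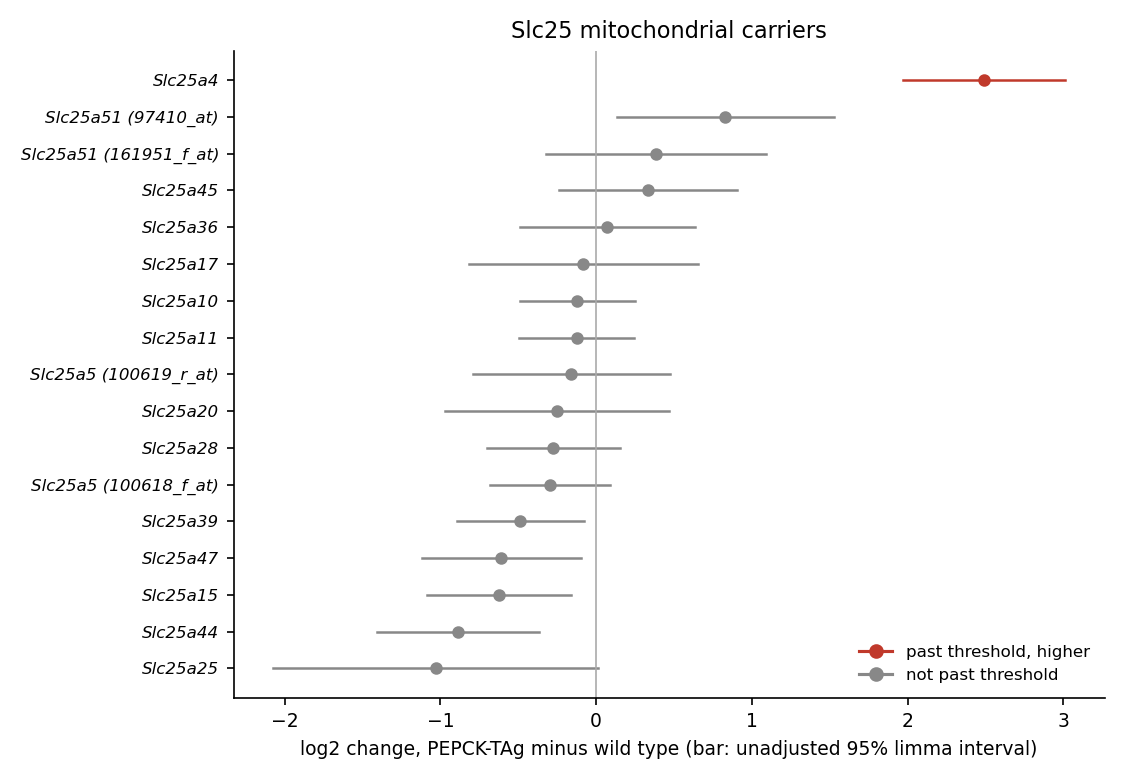
Log2 change (PEPCK-TAg minus wild type) of the 17 tested Slc25 probe sets, with unadjusted 95% intervals of the limma fit. Slc25a4 at 2.49 stands apart from the other 16, which lie between -1.03 and 0.83.

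Carriers of amino acids and peptides were the largest class, with 38 probe sets, of which 20 were tested. Slc6a12 and Slc66a2 fell (10%), 0 rose, and 18 missed the threshold, with a median of -0.17. Over all tested probe sets 3.07% were called lower and 6.40% higher. Slc66a2 was placed in this class for the count, and these data do not show what it carries. The sodium-coupled neutral amino acid carrier gene Slc38a4, which is abundant in liver, was just outside the threshold. Its signals were 3100 and 2857 in wild type against 1942 and 2064 in PEPCK-TAg, without overlap, and the difference was -0.57 ± 0.14 (limma, Benjamini-Hochberg adjusted p = 0.0530). Slc6a13, a GABA and taurine transporter gene of hepatocytes, measured 2085 and 2251.5 against 1529 and 1303, a difference of -0.61 ± 0.15 (limma, Benjamini-Hochberg adjusted p = 0.0572). It is the closest relative of Slc6a12 among the members, and both lay lower on both PEPCK-TAg arrays. The glycine transporter gene Slc6a9 measured 593.9 and 607.0 against 391.0 and 437.5, a difference of -0.52 ± 0.16 with a limma Benjamini-Hochberg adjusted p of 0.0941.

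The heavy and light chains of the heteromeric amino acid transporters did not move as a group. Slc3a1, a heavy chain gene, had signals of 302.6 and 163.0 in wild type against 113.4 and 40.2 in PEPCK-TAg. Its difference of -1.52 ± 0.45 was the widest downward one of the class and did not pass (limma, Benjamini-Hochberg adjusted p = 0.0888), though it did without PEPCK-TAg replicate 1 (-2.15, adjusted p 0.00949). The other heavy chain gene, Slc3a2, measured 596.5 and 571.0 against 521.7 and 828.7, with overlapping groups. The light chain gene Slc7a7 measured 113.4 and 166.1 in wild type against 240.1 and 236.7 in PEPCK-TAg, a difference of 0.74 ± 0.22 (limma, Benjamini-Hochberg adjusted p = 0.0862). It was called without wild type replicate 2 (0.99, adjusted p 0.0467). Slc7a5, another light chain gene, gave -0.18 ± 0.19.

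Slc6a8, the creatine transporter gene, was dim and variable, with 15.8 and 62.6 in wild type against 88.3 and 134.6 in PEPCK-TAg. All PEPCK-TAg values lay above all wild-type values, and the difference was 1.39 ± 0.48 (limma, Benjamini-Hochberg adjusted p = 0.128). Without wild type replicate 2 it was 2.09. This probe set passed the filter through its PEPCK-TAg signals, since its wild-type mean of 39.2 lay under the filter signal of 48.1. The other Slc6a8 probe set, below the filter, ran the other way, with 16.2 and 5 in wild type against 4.5 and 3.9 in PEPCK-TAg. The cationic amino acid carrier gene Slc7a2 measured 363.5 and 337.9 against 458.6 and 233.0, with an interval of -0.82 to 0.63. Slc38a2 gave 0.11 ± 0.24, and Slc1a5, which encodes a carrier of glutamine and other neutral amino acids, -0.69 ± 0.26 with groups apart. The other 18 probe sets of the class were below the filter, with signals of 0.7 to 67.7.

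Among sugar carriers 4 of 12 probe sets were tested and 0 passed. At an unadjusted p under 0.05 there were 1 higher and 1 lower, and over all tested probe sets that share was 15.5% higher and 11.0% lower. Slc2a2, which encodes the main glucose transporter of hepatocytes, measured 3999.5 and 4149 in wild type against 3071 and 3396 in PEPCK-TAg. The groups lay apart, and the difference of -0.33 ± 0.13 did not pass (limma, Benjamini-Hochberg adjusted p = 0.175). Slc50a1, which encodes a sugar transporter of the SWEET type, measured 206.0 and 173.6 against 272.4 and 296.2, a difference of 0.56 ± 0.18 (limma, Benjamini-Hochberg adjusted p = 0.107). Slc2a3 and Slc2a8, further glucose transporter genes, gave -0.60 ± 0.30 and -0.32 ± 0.18. The class median was -0.33, and with no filter, which brings in 8 dim probe sets, it was 0.35.

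Metal carriers had 18 of 23 probe sets tested and 0 past the limma threshold, with 1 higher and 3 lower at an unadjusted p under 0.05 (15.5% and 11.0% of all tested) and a median of -0.02. Slc31a1, the copper uptake transporter gene, was read by a pair of probe sets that moved alike. The dimmer measured 1007 and 1121 in wild type against 766.6 and 726.6 in PEPCK-TAg (-0.50 ± 0.15), and the brighter 2091 and 1933 against 1639 and 1376 (-0.42 ± 0.16). Both had groups apart, and their adjusted p by limma with Benjamini-Hochberg was 0.0949 and 0.153. Slc11a1, which encodes a metal transporter of the phagosome membrane in macrophages, measured 128.2 and 188.5 in wild type against 213.7 and 331.2 in PEPCK-TAg. This difference of 0.73 ± 0.27 (limma, Benjamini-Hochberg adjusted p = 0.153) ran the same way as the macrophage markers, and a link between them was not tested. The iron carrier gene Slc11a2 gave 0.04 ± 0.17 and -0.20 ± 0.24 with its probe sets. For the zinc carrier genes, Slc39a9 gave -0.45 ± 0.17 and Slc30a1 0.37 ± 0.22. The dimmer probe set of Slc30a5, which had 54.2 and 124.5 against 187.7 and 137.6 (0.85 ± 0.36), passed only without wild type replicate 2 (1.37, adjusted p 0.0436).

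Of 10 tested probe sets for inorganic ions and pH, Slc20a1 rose and 9 missed the threshold, and the class median was -0.21. That rise was 10% of the class, where 6.40% of all tested probe sets were called higher. Groups lay apart downwards in 6 of the 10 (60%) and upwards in 2 (20%). Over all tested probe sets the shares were 26.3% downwards and 30.2% upwards. Slc12a2, which encodes a sodium, potassium and chloride cotransporter, measured 262.5 and 198.9 in wild type against 158.3 and 141.5 in PEPCK-TAg, a difference of -0.57 ± 0.20 (limma, Benjamini-Hochberg adjusted p = 0.136). Slc4a2 and Slc4a3, anion exchanger genes, gave -0.39 ± 0.20 and -0.40 ± 0.23. Slc4a1, the anion exchanger gene of red blood cells, measured 82.9 and 46.4 against 73.3 and 77.7 with overlapping groups.

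Of 12 tested probe sets in the class of nucleosides, vitamins and choline, Slc46a1 and Slc29a1 fell and 10 did not pass. The falls were 16.7% of the class, where 3.07% of all tested probe sets were called lower. The class median of 0.05 was -0.01 to -0.09 with quantile normalization, median centring or cyclic loess and -0.09 without PEPCK-TAg replicate 2, so the class as a whole had no stable direction. The other folate carrier gene, Slc19a1, measured 117.6 and 139.8 in wild type against 135.1 and 150.9 in PEPCK-TAg with its brighter probe set, a difference of 0.14 ± 0.19, and -0.07 ± 0.31 with the dimmer. That of Slc46a1 was -1.82. The choline transporter gene Slc44a1 measured 467.2 and 436.2 against 738.6 and 569.7, with groups apart upwards and a difference of 0.51 ± 0.18 (limma, Benjamini-Hochberg adjusted p = 0.142). Slc48a1, a heme transporter gene, gave 0.17 ± 0.34, and Slc5a6, a transporter gene of biotin and pantothenate, 0.66 ± 0.47.

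Of 9 tested organic ion and bile acid probe sets Slc22a30 fell (11.1%) and 8 did not pass, with a median of -0.18. Over all tested probe sets 3.07% were called lower. The orphan family member Slc22a23 measured 236.8 and 254.7 against 170.9 and 142.1 (-0.61 ± 0.18; limma, Benjamini-Hochberg adjusted p = 0.0865). Slc10a3, of the bile acid carrier family, differed upwards by 0.57 ± 0.25, with 129.6 and 203.9 against 217.8 and 280.8. The carnitine transporter gene Slc22a5 gave -0.18 ± 0.25. Of 2 tested fatty acid probe sets Slc27a2 fell, and Slc27a4 gave -0.31 ± 0.20 with groups apart.

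Nucleotide sugar and acetyl-CoA carriers of the endoplasmic reticulum and Golgi had 10 tested probe sets and 0 past the limma threshold, with 2 lower and 0 higher at an unadjusted p under 0.05 (11.0% and 15.5% of all tested). Slc35d1, which supplies UDP-sugars to the endoplasmic reticulum, measured 1811 and 1605 in wild type against 1757 and 1711 in PEPCK-TAg. Its interval of -0.32 to 0.37 was among the narrower ones of the members. Slc33a1, the acetyl-CoA transporter gene, measured 206.3 and 169.3 against 131.2 and 117.2 (-0.55 ± 0.19). Slc35g3 measured 172.2 and 127.9 against 53.0 and 92.2 (-0.96 ± 0.29; limma, Benjamini-Hochberg adjusted p = 0.0949) and was called without PEPCK-TAg replicate 2 (-1.29, adjusted p 0.0473) and with median centring. The class median of -0.07 was 0.11 when PEPCK-TAg replicate 2 was left out, 0.01 when wild type replicate 1 was and 0.02 under the stricter filter (60th percentile).

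The remaining classes were small. Of 3 tested probe sets for monocarboxylates and sulfate 0 passed, and 0 had an unadjusted p under 0.05 by limma. The lactate and pyruvate carrier gene Slc16a1 measured 88.3 and 83.3 in wild type against 108.1 and 104.3 in PEPCK-TAg (0.27 ± 0.21), its relative Slc16a7 gave 0.42 ± 0.23, and the sulfate carrier gene Slc26a1 -0.42 ± 0.20. Of 3 tested transmitter probe sets 0 passed or had an unadjusted p under 0.05 by limma. Slc6a4 measured 116 and 58.2 in wild type against 64 and 39.4 in PEPCK-TAg, with overlapping groups (-0.59 ± 0.37). Slc17a1, which encodes a phosphate and urate carrier, was placed in this class for the count and supplied 2 of its tested probe sets. Slc17a1 measured 108.4 and 251.0 in wild type against 111.5 and 111.0 in PEPCK-TAg with its brighter probe set. The groups overlapped, and the difference of -0.53 ± 0.36 did not pass (limma, Benjamini-Hochberg adjusted p = 0.407). It was called without wild type replicate 1 (-1.09, adjusted p 0.0498), and its other probe set gave 0.00 ± 0.35. The 3 probe sets of genes named Slc that encode no carrier included Slc9a3r1, a scaffold protein gene, with 2105 and 2136 against 1770 and 1508 (-0.37 ± 0.15; limma, Benjamini-Hochberg adjusted p = 0.175).

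Of the 12 genes read by more than 1 tested probe set, the probe sets differed in sign for 5 and in call for 1, Slc29a1. The genes differing in sign were Slc11a2, Slc19a1, Slc23a3, Slc35e1 and Slc39a4, and each of their probe sets missed the threshold. Slc35e1 gave 0.23 ± 0.18 and -0.22 ± 0.22, with the groups apart in opposite directions. Slc39a4, a zinc uptake gene, measured 1315 and 1357 against 994.7 and 1516 with its brighter probe set (-0.12 ± 0.22) and gave 0.17 ± 0.17 with the dimmer. The sign given for these 5 genes depended on the probe set read, and whether their probe sets differ beyond the spread between arrays was not tested.

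**Figure D4:**
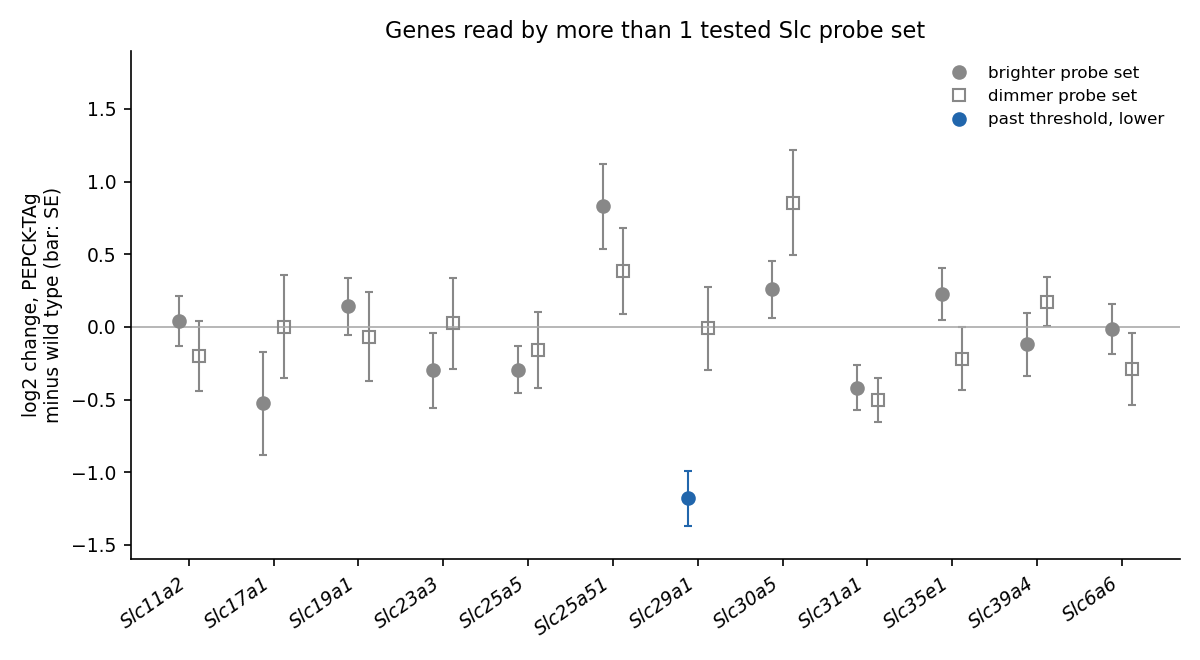
Log2 change (PEPCK-TAg minus wild type) with its SE for the 12 genes read by a pair of tested probe sets, the brighter filled and the dimmer open. Slc31a1 agrees at -0.42 and -0.50, while Slc29a1 gives -1.18 and -0.01.

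Other genes of membrane transport were counted for comparison, each gene by its brightest probe set. Over all tested probe sets 3.07% were called lower and 6.40% higher. Of 19 tested ATP-binding cassette genes 2 fell and 0 rose, with a median of -0.13. The efflux pump gene Abcg2 measured 1420 and 1309 in wild type against 682.2 and 793.3 in PEPCK-TAg (a change of -0.88 ± 0.16; limma, Benjamini-Hochberg adjusted p = 0.0213), and the mitochondrial transporter gene Abcb10 148.4 and 200.8 against 77.4 and 79.9 (-1.02 ± 0.22; limma, Benjamini-Hochberg adjusted p = 0.036). Of 12 tested proteins that assist or regulate carriers 2 fell. They were Pdzk1, a scaffold of apical transporters, with 729.5 and 786.5 against 480.8 and 390.9, and Tfr2, a sensor of transferrin iron, with 885.3 and 874.9 against 587.4 and 489.4. The 2 tested sodium pump subunit genes, 1 Slco gene and 1 copper pump gene gave 0 calls by limma.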

How the data were processed

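The values the authors deposited are MAS5 signals, 1 linear intensity per probe set, as the submitters' processing notes and the range of values show. The sources used here give no software version, scaling target or detection call. The instrument records deposited for each array hold no expression values and were not used. The trimmed mean (lowest and highest 2% removed) was 250.2 on all 4 arrays, so signals were used as scaled.

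Groups and replicate numbers came from the sample titles. The offset of 13 is 5% of the trimmed mean, and a fold on this scale understates changes of dim genes. Of 12422 non-control probe sets, those with a mean log2 value at or above the 40th percentile were tested (7453) with limma 3.58.1 (R 4.3.3), using a moderated two-sided test with a mean-variance trend and Benjamini-Hochberg adjustment over all of them. Degrees of freedom were 2 residual and 4.61 prior. With 2 arrays against 2 an exact permutation test has a smallest p of 0.333 and was left out. Precision is limited by the number of arrays.

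Symbols came from the platform annotation, with 10833 probe sets of 1 symbol, 396 of several and 1193 unnamed here. All 178 Slc probe sets matched the RefSeq gene table of GRCm38.p6 by Entrez identifier with 0 symbols changed. Promoter sequences are from RefSeq on that build. Named members were those past the threshold, up to 3 further members of smallest p in each class, genes whose probe sets disagree, and a fixed set of liver carriers, of which Slc25a13, Slc40a1 and Slc39a14 were not analysed here. Other members were named after their values were seen. The members and lists were chosen with earlier results of these data known. The procedure was tested on simulated arrays. Alternatives changed the offset, filter, normalization, variance trend, replicate block and arrays used, 1 at a time.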

Additional observations from a re-analysis of the deposited data

How the results depend on the processing

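Of the 8 calls, those of Slc20a1, Slc25a4 and Slc46a1 were made under all 13 alternatives, and no called member changed sign in any of them. The counts with all arrays were 2 higher and 6 lower. Leaving out 1 array gave 2 to 5 higher, with 5 without wild type replicate 2, and 3 to 5 lower, with 3 without wild type replicate 1. Median centring gave 11 lower, adding Slc25a44, Slc35g3, Slc38a4, Slc6a13 and Slc6a9. The median over tested Slc probe sets (-0.12) was -0.0938 with no filter, -0.20 with quantile normalization, -0.26 with median centring and -0.13 to -0.15 when 1 array was left out. The Slc25 median (-0.16) was -0.26 with the filter at the 60th percentile, -0.21 with quantile normalization, -0.30 with median centring and -0.11 to -0.32 when 1 array was left out. Over all tested probe sets the calls were 477 higher and 229 lower, 337 and 105 with no filter, 398 and 117 without the trend, and 696 and 444 with the replicate block. Replicate numbers share only a number here. Deviations of arrays with the same number correlated with r = 0.18 over 7453 probe sets, and the fit with the number as a block gave 4 higher and 13 lower Slc probe sets with all 8 calls kept. Beyond the 8 genes, it called Slc11a1 and Slc6a8 higher and Slc25a15, Slc25a25 (limma, Benjamini-Hochberg adjusted p = 0.00410), Slc25a39, Slc25a44, Slc38a4, Slc3a1 and Slc6a13 lower. The medians of the metal class (0.04 without PEPCK-TAg replicate 2), the transmitter class (0.03 without wild type replicate 2) and the monocarboxylate class (-0.03 with no filter) also changed sign. The cause of these shifts was not tested. With 2 arrays a group, intervals of many members span a fall and a rise.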

Other observations

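Among the Slc probe sets below the filter, the members in this paragraph were chosen after their values were seen. Slc2a1, a glucose transporter gene, had signals of 12.9 and 26.3 in wild type against 68.5 and 53.3 in PEPCK-TAg. Its log2 difference was 1.2 ± 0.33 when no filter was set (limma, Benjamini-Hochberg adjusted p = 0.123). Slc5a1, a sodium and glucose cotransporter gene, measured 15 and 27.2 against 56.3 and 59.9 (1.08 ± 0.30; limma, Benjamini-Hochberg adjusted p = 0.131). One of 3 probe sets of Slc8a1, a sodium and calcium exchanger gene, measured 21.7 and 19.6 against 58.0 and 72.4 (1.21 ± 0.27; limma, Benjamini-Hochberg adjusted p = 0.0805). In the other direction Slc22a21, which encodes a carnitine transporter, measured 36.1 and 25.2 against 5.9 and 10.7 (-1.03 ± 0.25; limma, Benjamini-Hochberg adjusted p = 0.0976). Slc25a53 measured 26.7 and 49.8 against 9.9 and 12.2 (-1.06 ± 0.30; limma, Benjamini-Hochberg adjusted p = 0.138). With no filter 0 of the 67 passed the limma threshold, and no detection calls were used to tell such dim signals from background.

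Some members differed between duplicates by as much as between groups. Slc35b1, a nucleotide transporter gene of the endoplasmic reticulum, measured 1331 (replicate 1) and 849.1 (replicate 2) in wild type against 1242.5 and 713.3 in PEPCK-TAg, so that the groups overlapped (-0.17 ± 0.31).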
